A study of Mus musculus with 24 samples.

Results

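The genes described here are the 6 genes of the mouse 14-3-3 family that are named Ywha, namely Ywhab, Ywhae, Ywhag, Ywhah, Ywhaq and Ywhaz, chosen by name among the 54232 genes listed in each library. All 6 were found, and all 6 passed the filter on low counts that left 22502 genes for testing. They were measured by RNA sequencing of the cerebellum in 24 mice aged 6 weeks, 1 library per mouse. The 8 wild-type mice carried unexpanded Atxn1 on both alleles (Atxn1 2Q/2Q, WT). The 4 SCA1 mice carried 1 allele expanded to 154 glutamines (Atxn1 154Q/2Q), a knockin model of spinocerebellar ataxia type 1. In the 4 SCA1 S776A mice the expanded allele also carried the S776A substitution, alanine in place of serine (Atxn1 154Q[S776A]/2Q), and in the 4 S776A double mice both alleles did (Atxn1 154Q[S776A]/2Q[S776A]). The 4 WT S776A homozygous mice had that substitution on both unexpanded alleles (Atxn1 2Q[S776A]/2Q[S776A]). The S776A alleles were made with CRISPR/Cas9 in the endogenous gene, with synonymous changes beside the substitution, and the mice were crossed back to C57BL/6J. Every cell of these animals thus carries the edit, the founder line behind each library is not given, and counts per gene do not check the alleles.

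Proteins of the 14-3-3 family are small adaptors that form dimers and bind phosphorylated serine or threonine in other proteins. They change where a partner sits in the cell, what it binds or how long it lasts, and they are abundant in neurons. ATXN1 phosphorylated at S776 is such a partner, and bound 14-3-3 shields it from degradation, so an alanine at this position removes the docking site. Ywhab encodes the beta isoform, Ywhae epsilon, Ywhag gamma, Ywhah eta, Ywhaq theta and Ywhaz zeta. The eta isoform is known for high expression in Purkinje cells, the output neurons of the cerebellar cortex that degenerate in SCA1.

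The libraries held between 62163600 and 88430180 fragments on genes. Each member had between 17361 and 142438 of them in a library, so counting error was small beside the spread between mice estimated over all groups. The authors sequenced the mice in 2 batches that the labels do not name. A clustering on mapping shares, without any gene's counts, put 16 mice in batch 1 (WT replicates 1 to 4, SCA1, SCA1 S776A and S776A double) and 8 in batch 2 (WT replicates 5 to 8 and WT S776A homozygous). Each genotype was compared with WT mice sequenced in the same batch. WT S776A homozygous replicate 4 stood apart, with 6.73% of its gene fragments on mitochondrial genes and 5.79% of its fragments mapping to several places, the highest shares of all 24 libraries. Markers of granule and Purkinje cells were detected in every group, those of forebrain neurons summed to at most 12.5 CPM (library-scaled counts), and those of choroid plexus ranged from 20.5 to 5155 CPM between libraries.

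How alike the 6 genes are matters for whether fragments can be assigned to one of them. The stretch of 60 coding bases in which the 6 messages resemble each other most is shown because even there the members can be told apart. It is read 5′ to 3′ from the GENCODE M21 transcripts, capitals mark the 22 bases at which at least 1 member differs, and the other 38 bases are shared by all 6.
Ywhab: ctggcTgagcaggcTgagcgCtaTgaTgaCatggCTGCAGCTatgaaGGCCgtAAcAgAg
Ywhae: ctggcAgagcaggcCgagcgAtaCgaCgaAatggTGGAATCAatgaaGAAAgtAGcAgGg
Ywhag: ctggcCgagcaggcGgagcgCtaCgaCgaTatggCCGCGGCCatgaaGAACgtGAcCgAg
Ywhah: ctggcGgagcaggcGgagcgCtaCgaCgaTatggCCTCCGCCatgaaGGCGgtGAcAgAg
Ywhaq: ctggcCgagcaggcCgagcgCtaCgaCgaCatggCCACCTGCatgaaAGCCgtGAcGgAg
Ywhaz: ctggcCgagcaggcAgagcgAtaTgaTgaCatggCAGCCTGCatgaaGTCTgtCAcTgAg
The stretch starts at coding base 34 in Ywhaq and Ywhaz, at base 37 in Ywhae, Ywhag and Ywhah and at base 40 in Ywhab. Of its 20 codons, 13 encode the same residue in all 6 members. From Ywhaz, Ywhaq differs at 11 bases, Ywhab at 12, Ywhag and Ywhah at 14 each and Ywhae at 18.

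Over the whole coding sequence the encoded proteins, of 245 to 255 residues, were 60.7% to 86.6% identical in pairs. Ywhag and Ywhah were the closest pair (86.6%), followed by Ywhab and Ywhaz (85.8%). Ywhae was the most distant member, with 60.7% to 65.5% identity to the others. The messages diverge further, with 59.8% to 78.6% identical coding bases. None of the 150-base words of Ywhab, Ywhae or Ywhag occurs in a transcript of another annotated gene (0%). Of Ywhah 1.19% do (in the pseudogene Gm12428), of Ywhaz 9.96% (in the pseudogene Gm4202) and of Ywhaq 12.7% (in the pseudogenes Ywhaq-ps3, Gm2423 and Gm21178 and in the protein-coding gene Cdk5rap2), so counts of Ywhaq and Ywhaz are the least certain. The pseudogenes had few counts: Gm4202 had 167 to 646 fragments per library, Gm12428 54 to 166, Gm2423 34 to 146, Ywhaq-ps3 12 to 51 and Gm21178 10 to 49. Cdk5rap2, which encodes a centrosomal protein, had 4020 to 6807 fragments (54.6 to 79.9 CPM), and whether any of them came from Ywhaq was not tested. Ywhaq also shares 248 exonic bases with the antisense gene Gm4419 (125 to 348 fragments), and the counting did not use strand.

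The partner site is shown as well, because the S776A edit sits in it. The name S776 follows the human protein. In the mouse reference the matching serine is codon 751 of 791, in exon 8 of 8 of Atxn1, within an arginine-x-x-serine-x-proline motif of the kind that 14-3-3 binds once the serine is phosphorylated. The 60 bases around it, at chr13:45557151-45557210 of GRCm38 on the minus strand, with the serine codon in capitals, are as follows.
Atxn1: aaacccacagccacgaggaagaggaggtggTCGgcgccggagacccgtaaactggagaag

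All 6 genes belonged to the most abundant messages of the cerebellum. Measured per length (RPKM over the union of annotated exons), Ywhah lay at 242.6 to 447.7, Ywhae at 220.9 to 374.8, Ywhaz at 126.6 to 199.8, Ywhab at 110.5 to 177.9, Ywhag at 102.4 to 168.8 and Ywhaq at 86.43 to 159.1 over the 24 mice. Each member was above at least 98.7% of tested genes. Ywhah was the highest member, followed by Ywhae and then Ywhaz in all 24 mice. Ywhab and Ywhag were not separated: Ywhab came before Ywhag and Ywhag before Ywhaq in 12 mice, and Ywhag before Ywhab and Ywhab before Ywhaq in 11. Ywhaq was last in 23 mice. Ywhah supplied 25.77% to 32.55% of the family's summed RPKM and Ywhaq 8.323% to 11.2%.

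**Figure D1:**
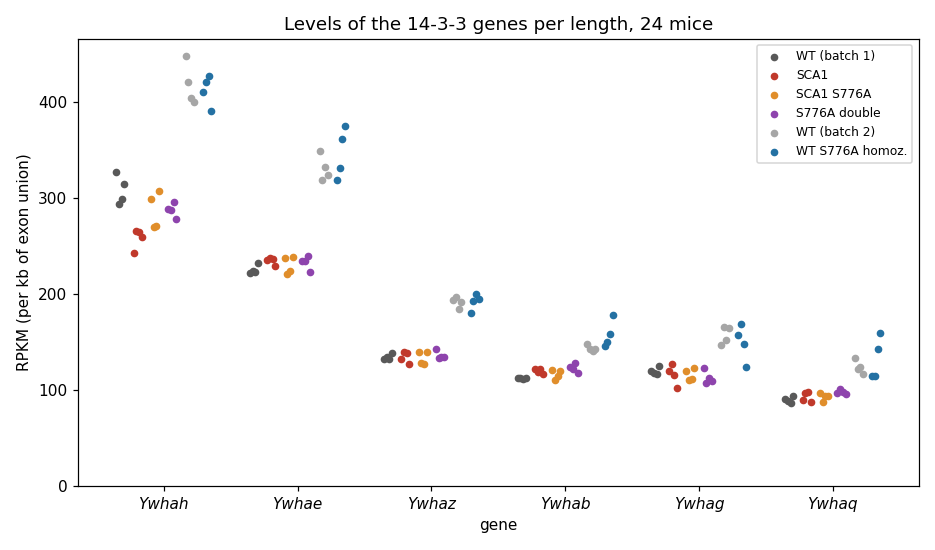
Levels of the 6 genes per length (RPKM, linear axis from 0), 1 point per mouse, with colours for genotype and batch. Ywhah, Ywhae and Ywhaz keep their order in all 24 mice, while Ywhab and Ywhag overlap, and both groups of batch 2 lie higher for each gene.

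The batches differed more than any genotypes did. In WT mice of batch 1, Ywhah had 1213, 1088, 1107 and 1164.95 CPM, and in WT mice of batch 2 it had 1661, 1560, 1500 and 1482 CPM. For each of the 6 genes, every WT mouse of batch 2 was higher than every WT mouse of batch 1. The log2 differences were 0.35 for Ywhab (SE 0.0561), 0.39 for Ywhag (SE 0.079), 0.44 for Ywhah (SE 0.0595), 0.46 for Ywhaq (SE 0.0787), 0.51 for Ywhaz (SE 0.0534) and 0.56 for Ywhae (SE 0.0553). All 6 had an adjusted p under 0.05, between 2.55e-08 and 0.000281 (edgeR quasi-likelihood, Benjamini-Hochberg adjusted), as did 45% of all tested genes. By the call rule used below, Ywhae and Ywhaz passed, beside 17.6% of tested genes, and the median over all tested genes was -0.00. What the batches differ in beyond the mapping shares was not tested, and no level of a batch 1 genotype was therefore compared with batch 2.

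A gene was called where its adjusted p was under 0.01 and its log2 fold change above 0.5 or below -0.5, the thresholds of the study. No member was called in any of the 8 tests below (edgeR), and none by DESeq2 with the batch as a covariate or after ComBat-seq and DESeq2. An unadjusted p under 0.05 was reached by 1 member each in 5 of the 8 tests, namely Ywhah in SCA1 mice and in both comparisons with SCA1 mice, and Ywhab against WT in S776A double and in WT S776A homozygous mice. Of all tested genes, 8.25%, 4.35% and 3.64% had such a p in the first 3 of these tests and 6.93% and 9.98% in the last 2. Ywhab in WT S776A homozygous mice no longer had one without replicate 4 (unadjusted p = 0.159, adjusted p = 1, edgeR). The CPM of every mouse are plotted for each gene.

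**Figure D2:**
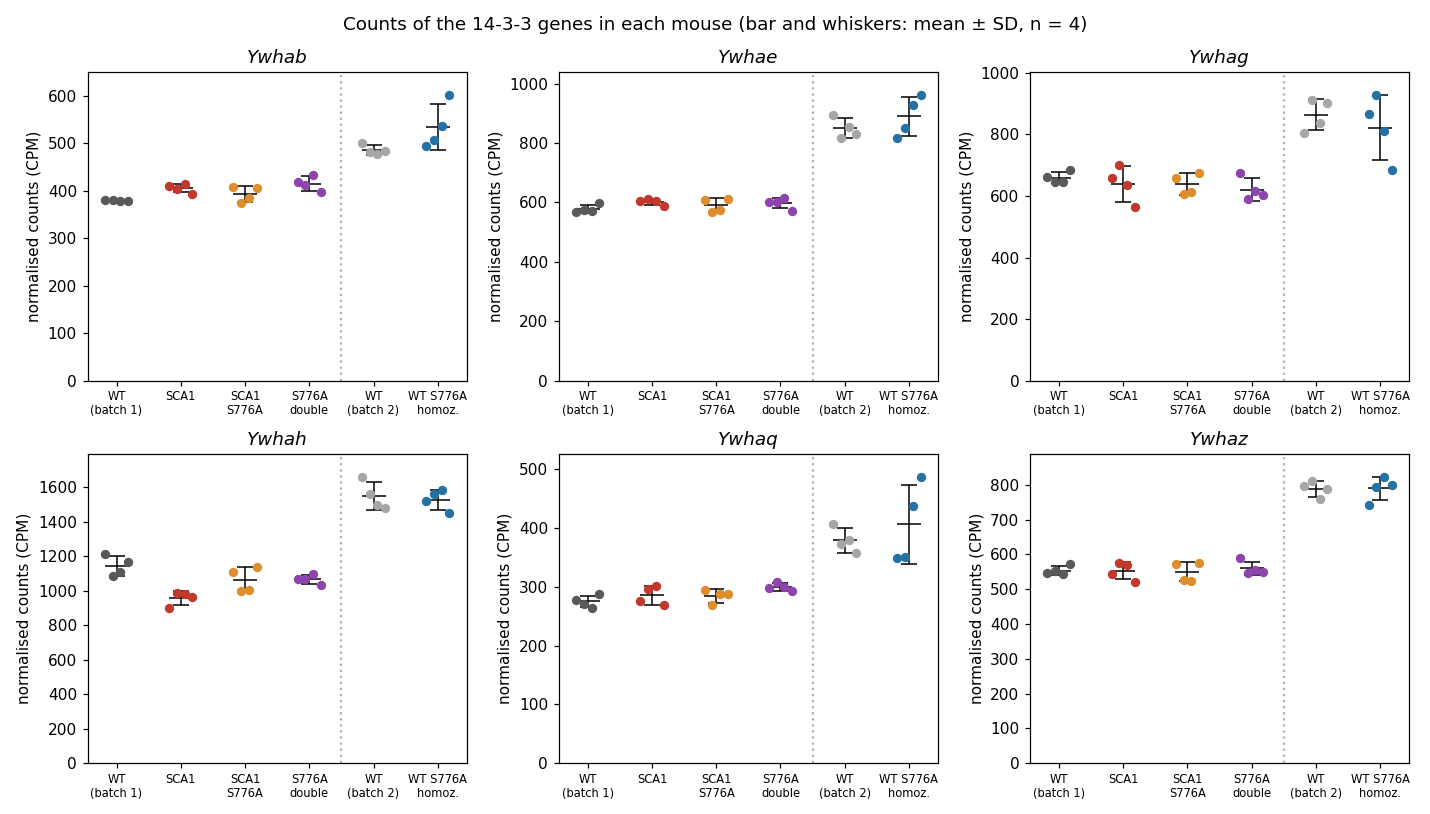
Normalised counts (CPM, linear axes from 0) of the 6 genes in each mouse, with mean and SD of the 4 mice per group and a dotted line between the batches. Within batch 1 the SCA1 mice are lowest for Ywhah (899.6 to 986.7 CPM), and in batch 2 the WT S776A homozygous mice spread widely for Ywhaq (349.4 to 487.1 CPM) and Ywhag (682.9 to 928.4 CPM).

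The first question was whether the expanded allele alone goes with a change of the messages that encode the ATXN1-binding adaptors. In SCA1 mice, Ywhah was the member that differed most from WT. It lies on chromosome 5 (33018816 to 33027966, plus strand, GRCm38). Its level was 899.6, 986.7, 982.1 and 961.5 CPM in the 4 SCA1 mice, a mean of 957.5 ± 40.1 (SD, n = 4), against 1143 ± 56.9 (SD, n = 4) in WT mice of batch 1. All 4 SCA1 mice were below all 4 of these WT mice. The log2 fold change was -0.26 (SE 0.0595, 95% interval -0.38 to -0.13), which is 0.838 times the WT level. The difference did not pass the threshold (unadjusted p = 0.000228, adjusted p = 0.0553, edgeR quasi-likelihood with Benjamini-Hochberg), and the whole interval lay inside the fold threshold. In the same comparison 0.173% of tested genes were called (39 genes). With 2 other tests, DESeq2 with the batch as a covariate and ComBat-seq followed by DESeq2, the fold change was the same within 0.01, and the adjusted p was 0.000936 and 1.11e-05. With WT replicate 1 left out, the log2 fold change was -0.23 and the adjusted p of edgeR's test rose to 0.27. Without WT S776A homozygous replicate 4, which is not in this comparison but enters the shared estimate of the spread, it was -0.26 with an adjusted p = 0.018. Over 12 alternatives the adjusted p ran from 1.11e-05 to 0.115.

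The share of Ywhah in the family moved with its count. It was 25.77%, 26.95%, 27.16% and 28.14% of the family's summed RPKM in SCA1 mice and 30.24% to 32.55% in WT mice of batch 1, without overlap. The share is computed from the same Ywhah counts and is not a separate result. The summed CPM of the 6 genes overlapped, with 3442 ± 122.7 (SD, n = 4) in SCA1 mice and 3589 ± 90.02 (SD, n = 4) in WT mice of batch 1.

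Markers of Purkinje cells moved with Ywhah. The 6 genes used as markers were Calb1, Pcp2, Itpr1, Car8, Gad1 and Rora. Whether each is confined to Purkinje cells was not tested, and Itpr1 had the highest median level of them (2620 CPM over all mice). All 6 had a log2 fold change below 0 in SCA1 mice with an unadjusted p under 0.05 (edgeR, 8.25% of all tested genes had one). None of the 6 was called, and their median was -0.27 beside 0.00 over all tested genes. Their summed level was 5552 to 6259 CPM in SCA1 mice and 7297 to 8388 CPM in WT mice of batch 1. It was 6224 to 7225 CPM in SCA1 S776A and 6048 to 8232 CPM in S776A double mice. Other marker lists were looked at in SCA1 mice as well. Of the 5 oligodendrocyte markers 0 were below 0 (median 0.20), and 2 had an unadjusted p under 0.05 (edgeR). Of the 6 granule cell markers 4 were below 0 (median -0.10), and 0 had such a p (edgeR). Choroid plexus markers summed to 894.9 to 5155 CPM in SCA1 mice and 21.01 to 1744 CPM in WT mice of batch 1. Of these 5 markers 0 had such a p (edgeR). The log2 of the choroid plexus sum, scaled here by library size alone, was added as a covariate after the data had been seen. The log2 fold change of Ywhah was then -0.25 (adjusted p = 0.112, edgeR). The part of the Purkinje cell markers in the result was not tested, and in a bulk tissue fewer cells of a type and less RNA per cell cannot be told apart.

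**Figure D3:**
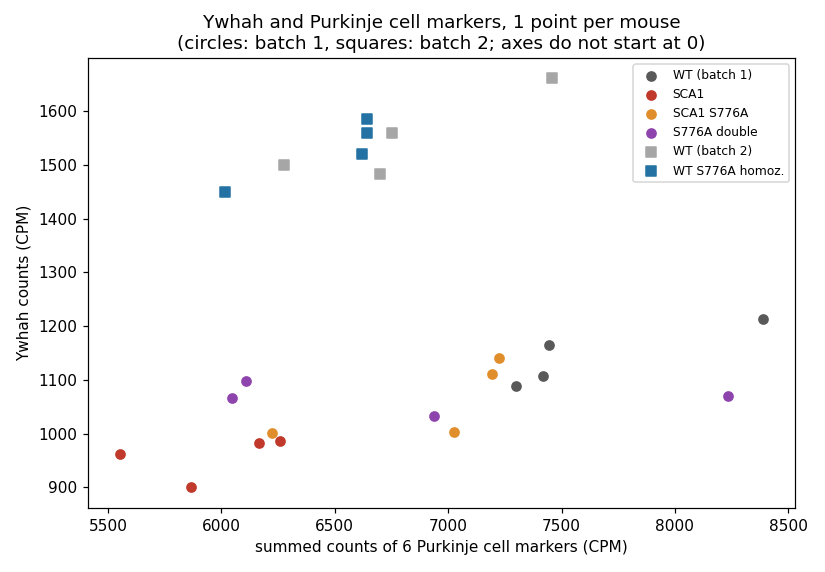
Ywhah counts (CPM) against the summed counts of the 6 Purkinje cell markers (CPM), 1 point per mouse, circles for batch 1 and squares for batch 2 (neither axis starts at 0). The 4 SCA1 mice lie low on both axes, and the mice of batch 2 lie higher for Ywhah at a like marker sum.

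The other 5 members differed from WT by less in SCA1 mice. Ywhab, on chromosome 2 (163994960 to 164018588, plus strand), had 410.6, 402.6, 413.6 and 393.9 CPM in SCA1 mice and 381.1, 380.1, 378.2 and 379.2 CPM in WT mice of batch 1. Every SCA1 mouse was above every one of these WT mice, whose spread was small (SD 1.25 CPM, n = 4) and below counting error at these counts. The log2 fold change was 0.09 (SE 0.056, adjusted p = 0.717). Ywhae had 587.5 to 610.4 CPM against 568.7 to 596.9 and a log2 fold change of 0.06 (adjusted p = 0.838). Ywhaq had 0.05 (adjusted p = 0.904), Ywhag -0.04 (adjusted p = 0.92) and Ywhaz -0.00 (adjusted p = 0.997), all (edgeR quasi-likelihood, Benjamini-Hochberg adjusted). Their groups overlapped. Of all tested genes, 3.77% were higher in every SCA1 mouse than in every WT mouse of batch 1, as Ywhab was, and 4.99% lower, as Ywhah was.

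The next question was whether the S776A substitution on the expanded allele goes with other levels. In SCA1 S776A mice, Ywhah had 1110, 1001, 1002 and 1140 CPM, a mean of 1063 ± 72.3 (SD, n = 4). These values overlapped with those of WT mice, since replicates 2 and 3 were below and replicates 1 and 4 within the WT range. The log2 fold change against WT was -0.10 (SE 0.0594, 95% interval -0.23 to 0.02, adjusted p = 1). Ywhab was at 0.05, Ywhaq at 0.05, Ywhae at 0.03, Ywhaz at -0.01 and Ywhag at -0.05 on the log2 scale, each with an adjusted p = 1 (edgeR quasi-likelihood, Benjamini-Hochberg adjusted). No member was called, as against 0.0133% of tested genes (3 genes). No member was higher in every SCA1 S776A mouse than in every WT mouse of batch 1 (1.87% of tested genes were), and none was lower in every one (2.52%).

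Set directly against SCA1 mice, Ywhah was higher in all 4 SCA1 S776A mice than in all 4 SCA1 mice, by a log2 fold change of 0.15 (SE 0.0594, 95% interval 0.03 to 0.27). The difference did not pass the threshold (unadjusted p = 0.0176, adjusted p = 1, edgeR). The nearest mice were at 1001 CPM (SCA1 S776A replicate 2) and 986.7 CPM (SCA1 replicate 2). Of tested genes, 1.73% were higher in every SCA1 S776A mouse than in every SCA1 mouse, and 0.00444% were called (1 gene). The other 5 members lay between -0.04 and -0.00 on the log2 scale, and their widest intervals ran from -0.17 to 0.16.

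In S776A double mice, Ywhah had 1070, 1066, 1097 and 1032 CPM, a mean of 1066 ± 26.8 (SD, n = 4). The log2 fold change against WT was -0.10 (SE 0.0594, 95% interval -0.22 to 0.02, adjusted p = 0.775). Ywhab had 418.7, 410.9, 433 and 396.3 CPM, all above the 378.2 to 381.1 CPM of the WT mice of batch 1, the same narrow range as above. Its log2 fold change was 0.13 (SE 0.056, 95% interval 0.01 to 0.24, unadjusted p = 0.0316, adjusted p = 0.702). Ywhaq, on chromosome 12 (21390071 to 21417637, minus strand), had 297.5, 307.8, 300 and 292.6 CPM against 277.8, 271.5, 264.6 and 287.8 CPM in these WT mice. These groups did not overlap either, and the log2 fold change was 0.12 (SE 0.0786, 95% interval -0.04 to 0.28, adjusted p = 0.779). Ywhae was at 0.05, Ywhaz at 0.02 and Ywhag at -0.09 on the log2 scale, with adjusted p between 0.826 and 0.949 (edgeR quasi-likelihood, Benjamini-Hochberg adjusted). No member was called, beside 0.0267% of tested genes (6 genes). Of tested genes, 3.56% were higher in every S776A double mouse than in every WT mouse of batch 1, as Ywhab and Ywhaq were, and 3.54% were lower, as no member was.

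Against SCA1 mice, Ywhah was higher in all 4 S776A double mice, by a log2 fold change of 0.16 (SE 0.0594, 95% interval 0.03 to 0.28, unadjusted p = 0.0149, adjusted p = 1, edgeR). Of tested genes, 1.57% were higher in every S776A double mouse than in every SCA1 mouse, and none was called (0%, although 819 had an unadjusted p under 0.05, with 2 called by DESeq2 with the batch as a covariate and 4 after ComBat-seq and DESeq2). The other 5 members lay between -0.04 and 0.07 on the log2 scale. Between S776A double and SCA1 S776A mice the log2 difference of Ywhah was 0.00, with a 95% interval from -0.12 to 0.13. The other 5 members lay between -0.04 (Ywhag) and 0.08 (Ywhab) in that comparison, in which 0% of tested genes were called (666 at an unadjusted p under 0.05, 0 called by DESeq2 with the batch as a covariate and 2 after ComBat-seq and DESeq2). The values of SCA1 S776A and S776A double mice against SCA1 share the same 4 SCA1 mice, and those of the 3 genotypes with the expanded allele share the same 4 WT mice.

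**Figure D4:**
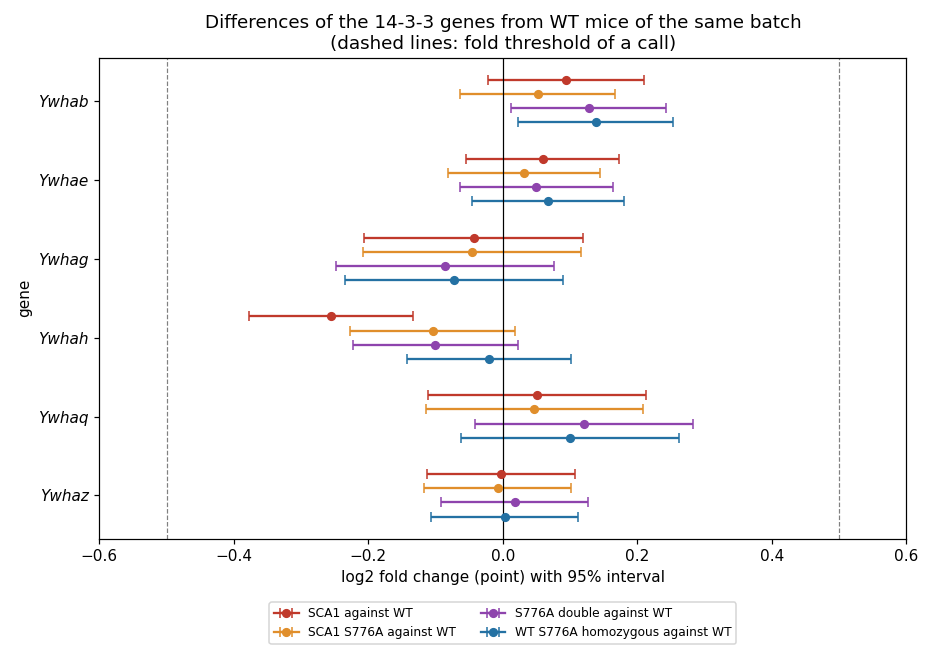
Log2 fold change (point) and 95% interval (bar) of the 6 genes in 4 genotypes against the WT mice of the same batch, with the fold threshold of 0.5 dashed. Every interval lies inside the threshold, and 3 exclude 0: Ywhah in SCA1, and Ywhab in S776A double and in WT S776A homozygous mice.

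The last question was whether S776A without an expanded allele goes with other levels. In WT S776A homozygous mice, Ywhah had 1521, 1560, 1585 and 1450 CPM, of which 3 lay within the range of the WT mice of batch 2 (1482 to 1661 CPM). The log2 fold change was -0.02 (SE 0.0594, 95% interval -0.14 to 0.10, adjusted p = 0.914). Ywhab had 493.6, 506, 535.3 and 601.7 CPM against 499.9, 481.2, 476.5 and 483.9 CPM, a log2 fold change of 0.14 (SE 0.056, 95% interval 0.02 to 0.25, unadjusted p = 0.0209, adjusted p = 0.485). Ywhaq had 349.4, 351.1, 437.7 and 487.1 CPM against 407.2, 372.2, 379.2 and 357.8 CPM, with a log2 fold change of 0.10 (adjusted p = 0.62). Replicates 3 and 4 were above every one of these WT mice for Ywhaq and replicates 1 and 2 below. Ywhag ran the other way, with 864.5, 928.4, 812 and 682.9 CPM and a log2 fold change of -0.07 (adjusted p = 0.729). Ywhae was at 0.07 (adjusted p = 0.636) and Ywhaz at 0.00 (adjusted p = 0.988), all (edgeR quasi-likelihood, Benjamini-Hochberg adjusted).

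Replicate 4, which stood apart in its mapping, was the highest mouse for Ywhab, Ywhae and Ywhaq and the lowest for Ywhag and Ywhah. Without it, the log2 fold changes were 0.07 for Ywhab (SE 0.0496), 0.02 for Ywhae, 0.00 for Ywhag, 0.00 for Ywhah, -0.00 for Ywhaq and -0.01 for Ywhaz, each with an adjusted p = 1 (edgeR). No member was called with or without it, and 0% of tested genes were called (2246 at an unadjusted p under 0.05, 0 called by DESeq2 with the batch as a covariate and 99 after ComBat-seq and DESeq2). No member was higher in every WT S776A homozygous mouse than in every WT mouse of batch 2 (1.32% of tested genes) or lower in every one (1.34%).

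Whether S776A on the unexpanded allele goes with another difference when the expanded allele is present was tested as an interaction, S776A double against SCA1 S776A mice set against WT S776A homozygous against WT mice. The estimates were -0.06 for Ywhab, -0.05 for Ywhae, 0.03 for Ywhag, 0.02 for Ywhah, -0.03 for Ywhaq and 0.02 for Ywhaz on the log2 scale, with SE from 0.0754 to 0.112 and adjusted p of 0.997 or 0.998 (edgeR). Without WT S776A homozygous replicate 4 they lay between -0.05 (Ywhag) and 0.07 (Ywhaq), with an adjusted p = 1 for each (edgeR). The first contrast adds 1 S776A allele to an expanded one and the second adds 2, so they are not equal doses. The first also lies wholly in batch 1 and the second in batch 2. An effect of S776A that differs between the batches cannot be told apart from the interaction. No member was called, and 0% of tested genes were (648 at an unadjusted p under 0.05, 0 called by DESeq2 with the batch as a covariate and 35 after ComBat-seq and DESeq2).

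The spread between mice of one group differed among the members. Beyond counting error, counts varied by 6.3% for Ywhaz, 6.46% for Ywhae, 6.5% for Ywhab, 6.84% for Ywhah, 8.47% for Ywhaq and 8.55% for Ywhag, beside a median of 12.5% over all tested genes (biological coefficient of variation). Of the genes of similar level, 94.3% had a larger within-group SD than Ywhaz and 94.2% a larger one than Ywhae. For Ywhaq this share was 47.2% and for Ywhag 53.8%. Without WT S776A homozygous replicate 4, Ywhab varied least (5.38%) and Ywhag most (7.17%), with Ywhaq at 6.78% and all tested genes at a median of 11.9%.

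Deviations of the mice from their group means were compared between members on the log2 CPM scale over the 24 libraries, which share depth scaling and dissection, so the following correlations are descriptions. Of the 15 pairs, 12 had a correlation above 0. Ywhab and Ywhae deviated most alike (r = 0.876), followed by Ywhae and Ywhaq (r = 0.865) and Ywhab and Ywhaq (r = 0.818). Ywhag had r = -0.364 with Ywhab, -0.305 with Ywhae and -0.484 with Ywhaq. These negative values rested on WT S776A homozygous replicate 4, without which they were 0.198, 0.0374 and -0.115 over 23 libraries, and 14 of the 15 pairs were above 0. The other 3 values were then 0.853 (Ywhab and Ywhae), 0.81 (Ywhae and Ywhaq) and 0.646 (Ywhab and Ywhaq). Ywhah had r = 0.518 with Ywhaz, and 0.576 without that mouse, when its value with Ywhab rose from 0.168 to 0.616. The closest pair by protein sequence, Ywhag and Ywhah, had r = 0.313, and 0.168 without it.

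Outside the family, the genes that deviated most like each member were, in order of r, Tfam (0.943) and Stx7 (0.935) for Ywhab, and Zfp277 (0.929) and Tceal9 (0.926) for Ywhae. For Ywhag they were Csnk1d (0.957), a casein kinase, and Tmem127 (0.95). For Ywhah they were Kcnip1 (0.845), a regulator of potassium channels, and Ppp1r17 (0.828), a phosphatase inhibitor known from Purkinje cells. Morf4l2 (0.964) and Rbbp9 (0.963) were nearest to Ywhaq, and Tspyl1 (0.871) and Gnb1 (0.827) to Ywhaz. Each r is over the same 24 libraries and was chosen as the highest among the tested genes. Without WT S776A homozygous replicate 4 the 12 values lay between 0.836 and 0.936, and each of these genes was among the 4 most alike to its member.

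The genes around the family were examined as 2 lists. The first held 10 genes of the S776 axis, which are Atxn1 and its relatives and partners Atxn1l, Cic and Rbm17, the kinase genes Prkaca, Prkacb, Rps6ka5 and Akt1, and the phosphatase genes Ppp2ca and Ppp2cb. None of the 10 was called in any comparison. The lowest unadjusted p values against WT belonged to Atxn1, with log2 fold changes of 0.29 in S776A double (SE 0.0831, unadjusted p = 0.00189, adjusted p = 0.398, edgeR) and 0.27 in SCA1 S776A mice (unadjusted p = 0.00318, adjusted p = 0.87, edgeR). Ppp2cb, a catalytic subunit of protein phosphatase 2A, followed, with 0.19 in S776A double mice (SE 0.061, unadjusted p = 0.00394, adjusted p = 0.487, edgeR). Atxn1 was also at 0.21 in SCA1 mice, which lack S776A (SE 0.0831, unadjusted p = 0.0178, adjusted p = 0.453, edgeR). In WT S776A homozygous mice it was at 0.02 (unadjusted p = 0.824, adjusted p = 0.947, edgeR). Set against SCA1 mice, Atxn1 was at 0.06 in SCA1 S776A and 0.08 in S776A double mice (unadjusted p = 0.474 and 0.358, edgeR). The list median lay at 0.03 in SCA1, 0.02 in SCA1 S776A, 0.04 in S776A double and 0.04 in WT S776A homozygous mice, beside medians of all tested genes of 0.00, 0.00, -0.00 and 0.01.

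The second list held 31 known partners of 14-3-3 proteins, such as the kinase gene Braf, the transcription factors Foxo1 and Foxo3 and the deacetylase Hdac4. All 31 were tested and none was called in any comparison. In SCA1 mice, 18 of 31 were below 0 (49.5% of all tested genes were) with a median of -0.02. Gabbr1, a subunit of the GABA-B receptor, had the lowest p of the list at a log2 fold change of -0.24 (SE 0.0788, unadjusted p = 0.00519, adjusted p = 0.277, edgeR), and Map3k5, a stress kinase, was at 0.21 (SE 0.0726, unadjusted p = 0.00911, adjusted p = 0.352, edgeR). In SCA1 S776A mice 17 of 31 were below 0 (48.8% of all tested genes) and in S776A double mice 19 of 31 (50.2%). In WT S776A homozygous mice 27 of 31 were below 0 (46.7% of all tested genes were), with a median of -0.10 beside 0.01 over all tested genes. Before adjustment 2 of the 31 reached a p under 0.05 (6.45%), beside 9.98% of all tested genes. Without replicate 4, 23 of 31 were below 0 beside 50.1% of all tested genes, the median was -0.04 beside -0.00, and none had an unadjusted p under 0.05 (2.67% of all tested genes, edgeR). In S776A double against SCA1 S776A mice 25 of 31 were below 0 (51.4% of all tested genes), and 25 of 31 (52.5%) without that replicate. There 0 of the 31 had an unadjusted p under 0.05 (2.96% of all tested genes, edgeR). Against SCA1 mice, 10 of 31 were below 0 in SCA1 S776A (49.9%) and 16 of 31 in S776A double mice (49.6%). The direction over the list was not tested.

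The family has a further gene, Sfn, which encodes the sigma isoform and is known from epithelia. It had 98 to 221 fragments per library (1.38 to 2.95 CPM), far below the 6 members. The annotated pseudogenes Ywhaq-ps1 (0 to 10 fragments) and Ywhaq-ps2 (29 to 71 fragments) had still fewer counts, and Ywhaq-ps1 did not pass the filter on low counts.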

How the data were processed

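Reads were trimmed (Trimmomatic 0.36) and aligned to GRCm38.p6 (STAR 2.7.2d) by the authors, who deposited raw counts of fragments per gene for each library, made before their batch correction. The unstranded counts were used. The annotation is not given in the sources used here, and 54165 of 54232 gene identifiers matched GENCODE M21. Genes were tested in R 4.3.3 with the robust quasi-likelihood test of edgeR 4.0.16 after TMM scaling, on all 24 libraries. Genotype and batch were the terms of the model, and p-values were adjusted by Benjamini-Hochberg over all 22502 genes. Batches were inferred by k-means clustering (k of 2, 50 starts, mean silhouette 0.634) on 4 mapping shares (unmapped, multimapping, outside genes, ambiguous), since the labels do not give them. Where they are wrong, every value against WT changes. CPM were computed with TMM factors (0.944 to 1.056). RPKM, being per length of the exon union, serve to compare genes. The test was tried on simulated data with known changes. Those changes were larger than any found for the members, so the trial does not show how well differences of their size are detected. Alternatives used DESeq2 1.42.0 and sva 3.50.0. Over 36 pairs of mice from one group, chi-square divided by its degrees of freedom was 8.72 to 221, far above sampling noise, and each library counted as 1 replicate. The labels name separate mice.

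The members and gene lists were chosen with earlier results of these data known. The rule for named genes took all 6 members, Atxn1, Sfn and the annotated family pseudogenes, the 2 genes of each list with the lowest p against WT where none was called, and the 2 genes most alike to each member. Pseudogenes that share words with a member were named after the sequences were compared. Correlations, spread and list counts without WT S776A homozygous replicate 4 were added after seeing the data. Some further genes of the files are not reported here.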

Additional observations from a re-analysis of the deposited data

How the results depend on the processing

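No member was called under any alternative, including each of the 24 mice left out, so the counts of called members were 0 throughout, between 0 and 0 with a mouse left out. Of 1710 recomputed fold changes of members, 1678 moved by less than their standard error and 32 by more, 30 of them without the batch covariate and 2 without WT S776A homozygous replicate 4 (0.07 for Ywhab and -0.00 for Ywhaq). Without the batch covariate, 12 of the 24 differences from WT turned their sign, since the WT mice of both batches were then pooled. Ywhab in SCA1 mice became -0.09, Ywhae -0.25, Ywhaq -0.20, and Ywhah -0.49.

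For Ywhah in SCA1 mice, the log2 fold change lay between -0.49 and -0.25 over 12 alternatives and between -0.28 and -0.23 with a mouse left out. Its adjusted p lay between 1.11e-05 and 0.115 and was under 0.05 in 6 of the 12, namely with DESeq2 (0.000936), ComBat-seq and DESeq2 (1.11e-05), no batch covariate (0.0108), batch 1 mice only (0.0272, chosen after seeing the data), only the genotypes compared (0.0334) and at least 10 counts in 4 libraries (0.0483). With a mouse left out it lay between 0.018 (without WT S776A homozygous replicate 4) and 0.27 (without WT replicate 1). Some other members had an adjusted p under 0.05 in 1 alternative each (edgeR or DESeq2, Benjamini-Hochberg adjusted). These were Ywhab in S776A double mice (0.0354, 1 of 12) and, in WT S776A homozygous mice, Ywhab (0.0323), Ywhae (0.044) and Ywhaq (0.0435, each 1 of 11). With a mouse left out, none of these differences had an adjusted p under 0.05 (edgeR).

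The counts of all genes called moved more. Over the alternatives they ran from 26 (choroid plexus covariate) to 118 in SCA1, from 0 (batch 1 mice only) to 32 in SCA1 S776A, from 1 (only the genotypes compared) to 50 in S776A double and from 0 to 99 in WT S776A homozygous mice, from 0 to 11 in SCA1 S776A against SCA1, from 0 to 4 in S776A double against SCA1, from 0 to 2 in S776A double against SCA1 S776A and from 0 to 35 in the interaction, each time highest after ComBat-seq and DESeq2. DESeq2 with batch gave 66, 9 and 20 in the first 3. With a mouse left out they ran from 21 (without SCA1 replicate 1) to 56 (without WT S776A homozygous replicate 4) in SCA1, from 0 (without SCA1 S776A replicate 2) to 5 in SCA1 S776A and from 3 (without S776A double replicate 2) to 10 (without S776A double replicate 4) in S776A double mice. No paired analysis was possible because the labels give each mouse a number of its own, and the replicate numbers used here, given in listing order within a genotype, only name the mice. At this depth counting error was below the spread between mice of one group as estimated over all groups. It was not below the observed spread of Ywhab in WT mice of batch 1 (coefficient of variation 0.328%, n = 4).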

Other observations

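The deviations of the members from their group means were also set beside the summed levels of the marker lists, on the log2 scale over the 24 libraries and as a description. Ywhab, Ywhae and Ywhaq deviated with the microglia markers (r = 0.712, 0.784 and 0.76) and, for Ywhae and Ywhaq, with the oligodendrocyte markers (r = 0.577 and 0.734). Ywhag had r = -0.37 and -0.531 with these lists. Ywhah and Ywhaz had r = 0.226 and 0.447 with the microglia markers. Ywhag, Ywhah and Ywhaz deviated with the Purkinje cell markers (r = 0.494, 0.474 and 0.499) and with those of Bergmann glia and astrocytes (r = 0.59, 0.536 and 0.678), while the values of Ywhab, Ywhae and Ywhaq with the Purkinje cell markers were 0.00803, 0.0251 and 0.0184. With the granule cell markers no member had r above 0.25.

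WT S776A homozygous replicate 4, which stood apart in its mapping, had the highest microglia sum (60.04 CPM, others at most 54.78) and the highest oligodendrocyte sum (11510 CPM, others at most 10470). Without it, over 23 libraries, the values with the microglia markers were 0.561, 0.701 and 0.644 for Ywhab, Ywhae and Ywhaq, and those with the oligodendrocyte markers 0.409 for Ywhae and 0.597 for Ywhaq. Those of Ywhag were -0.0594 (microglia) and -0.295 (oligodendrocytes). Ywhah and Ywhaz had 0.476 and 0.47 with the microglia markers. With the Purkinje cell markers, Ywhag, Ywhah and Ywhaz then had r = 0.451, 0.433 and 0.54, and Ywhab, Ywhae and Ywhaq 0.293, 0.187 and 0.25. With those of Bergmann glia and astrocytes, Ywhag, Ywhah and Ywhaz had 0.663, 0.528 and 0.698, and Ywhab, Ywhae and Ywhaq 0.431, 0.227 and 0.293. The members were thus not cleanly divided by these lists. With the granule cell markers the highest was 0.274, for Ywhag.

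The gap of the highest and lowest mouse to the next was examined in 42 groups of 4 mice (6 members and their sum in 6 groups), and none passed the limit of Dixon's test, where chance gives about 2.1. The 42 are not independent, since the same mice recur and the sum is made of the members. With 4 mice only a very wide gap can pass, so the absence of flags says little.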
